A study of Macaca mulatta with 24 samples.

Results

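The inner parvocellular layers of the lateral geniculate nucleus (LGN), layers 3 and 4, were compared between deprived and nondeprived sides of the same nuclei after monocular deprivation. They were chosen by the layer number in the sample titles, which gave 8 of the 24 arrays of the study. The LGN is the thalamic relay between the retina and the primary visual cortex. Its samples came from 2 infant rhesus macaques whose left eye was deprived from birth, 1 wearing an opaque contact lens for 2 months and 1 with its lids closed surgically (tarsorrhaphy) for 4 months. No genotype or allele was given for either animal. The deprived group was layer 3 of the LGN ipsilateral to the deprived eye and layer 4 of the contralateral LGN (4 arrays), and the nondeprived group was layer 4 of the ipsilateral and layer 3 of the contralateral LGN (4 arrays). Each layer was laser-captured from 6 to 10 sections that were pooled, without the koniocellular layers between them, and its RNA was amplified in 2 rounds and hybridized to 1 Rhesus Macaque Genome Array.

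Each LGN layer takes input from 1 eye, and parvocellular relay neurons carry fine spatial detail and, in most primates, red-green color signals to the cortex. In the LGN ipsilateral to the deprived eye the uncrossed axons of that eye end in layer 3, while in the contralateral LGN its crossed axons end in layer 4, so the 2 members of a pair are neighbors in the same section and differ in eye, in layer number and in crossed or uncrossed input. Layer number and the origin of the input balance against deprivation only across the 2 sides. Loss of patterned vision early in life leaves relay neurons of deprived layers smaller, and neurons with less synaptic drive are known to lower oxidative enzymes, whereas voltage-gated sodium channels, with their auxiliary beta subunits and the intracellular fibroblast growth factor homologous factors that bind them, set how readily a neuron fires.

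The controls were the nondeprived layers of the same LGNs, since no animal with normal vision was on these arrays. A fall in deprived layers therefore cannot be told apart from a rise in nondeprived layers. Each duration stands for 1 animal and 1 method of deprivation, which cannot be told apart. P-values measure the spread between pairs of layers in the 4 LGNs of 2 animals and not the spread between animals. On the 8 arrays 41.8% to 53.0% of the probe sets reached a signal of 100. On the log2 scale each array correlated with the other 23 at a mean of 0.886 to 0.912. The GAPDH ratio of 3' to 5' signal, a measure of how far RNA is shortened, was 3.30 to 7.88 in deprived and 1.97 to 6.06 in nondeprived inner layers. Both arrays of the contralateral LGN at 2 months were apart from the other 6, with 52.9% and 53.0% of probe sets at 100 or more against 41.8% to 46.5% and the lowest mean correlations (0.894 and 0.886), and the nondeprived array of the contralateral LGN at 4 months had the lowest GAPDH ratio of the 24 (1.97). A magnocellular array (ipsilateral LGN, 2 months, deprived layer 2) stood farther apart, with a GAPDH ratio of 50.8 and a mean correlation of 0.811, and it bears only on the magnocellular values given for comparison.

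A single gene passed the test in the inner layers. FGF11 read lower in deprived than in nondeprived layers. Among genes to which the platform table gave 1 symbol, GPI, MAML3 and SCN3B had the smallest p-values of those that read higher, without passing the threshold. Of 38 measured genes of oxidative phosphorylation, each represented by its brightest probe set, 36 read lower, and none of these passed it. With limma on log2 signals and the pair of layers as a block, 1 of 37623 probe sets tested was lower and 0 were higher at an adjusted p under 0.05 (0.00266% and 0.0%). At an unadjusted p under 0.05, 1576 probe sets were lower (4.19%) and 1784 were higher (4.74%). In 4 of 4 LGNs 3619 probe sets read lower (9.62%) and 3049 read higher in the deprived layer (8.1%). The deprived and nondeprived arrays did not overlap for 424 probe sets with lower (1.13%) and 515 with higher signals (1.37%). Throughout, the 4 values of a group follow the order of the ipsilateral and contralateral LGN at 2 months and the ipsilateral and contralateral LGN at 4 months, a signal is a linear intensity in arbitrary units, and a log2 fold change is the mean over the 4 LGNs of the log2 ratio of deprived to nondeprived signal.

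FGF11 (MmuSTS.1939.1.S1_at) encodes an intracellular fibroblast growth factor homologous factor, one of the proteins that bind sodium channels. Its signal was 402, 435, 316 and 277 in deprived layers and 1054, 1468, 1167 and 1030 in the nondeprived layers of the same LGNs. Every deprived layer was below every nondeprived layer. The mean signal was 357 ± 73.4 (SD, n = 4) against 1180 ± 201 (SD, n = 4), 3.32-fold lower, with a mean log2 ratio of -1.73 (SE 0.21, adjusted p = 0.0338 by limma). The log2 fold change was -1.57 in the 2-month and -1.89 in the 4-month animal. The outer parvocellular layers, which share the LGNs but no array, gave -1.79 (adjusted p = 0.0232 by limma), and FGF11 was the 1 probe set of 37623 called there (0.00266%). Another FGF11 probe set (MmugDNA.21658.1.S1_at), with mean signals of 174 and 197, gave -0.22 (SE 0.30). The call was lost when any 1 LGN pair was left out (adjusted p = 0.0546 to 0.430 by limma), under median scaling (0.108), with signals under 50 raised to 50 (0.259) and without a trend of the spread (0.613).

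**Figure D1:**
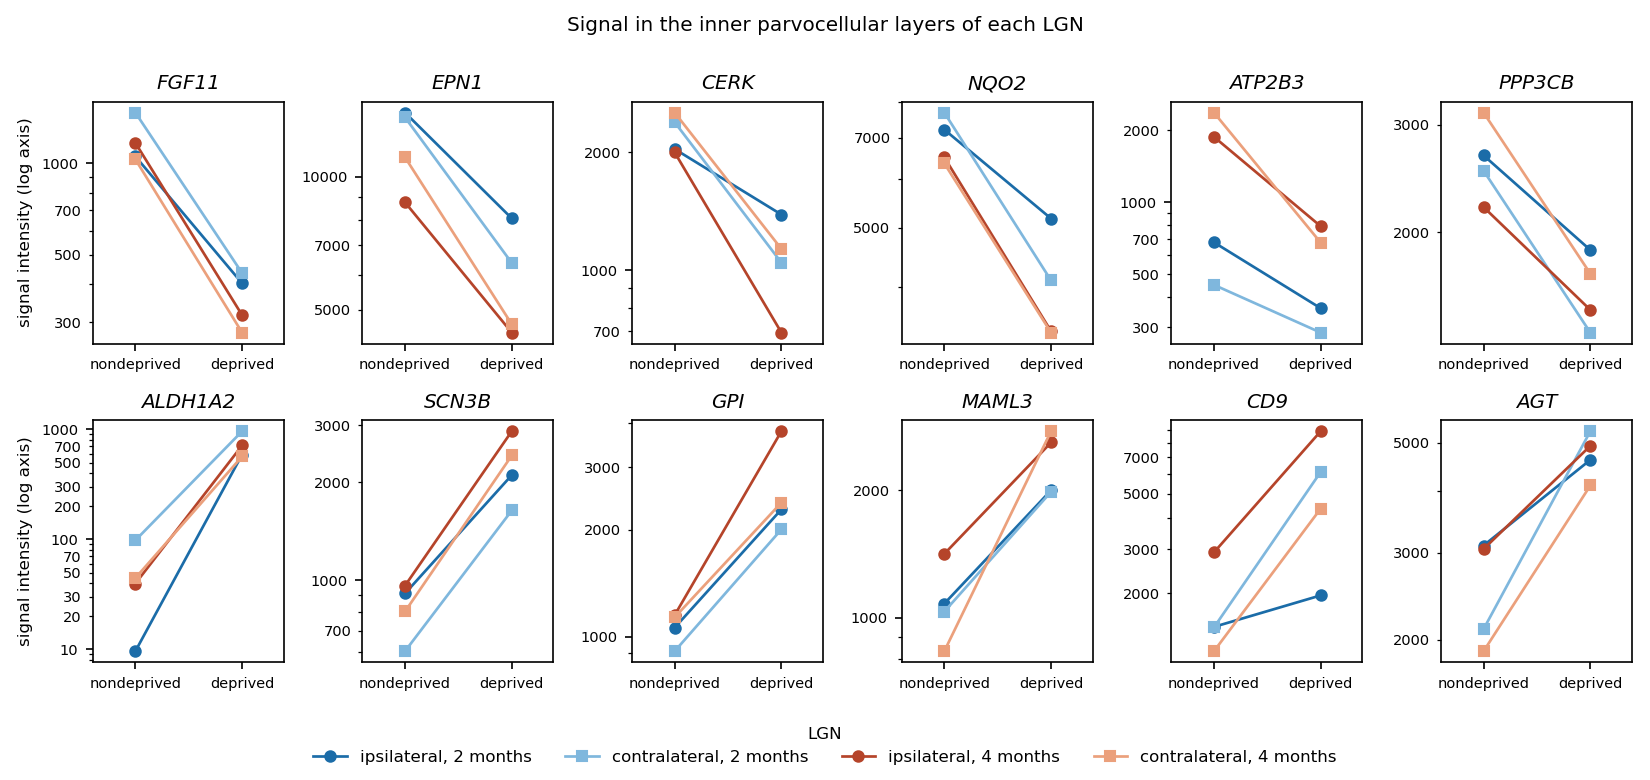
Signal intensity (log axis) of 12 genes in the inner parvocellular layers, with a line joining the nondeprived and the deprived layer of each of 4 LGNs. All lines of the upper 6 genes slope down and all lines of the lower 6 slope up; for FGF11 the deprived layers lie between 277 and 435 and the nondeprived layers between 1030 and 1468, and for ATP2B3 and CD9 the groups overlap.

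Of the 10 genes named for higher signals, none passed the threshold, and their adjusted p-values lay between 0.0859 and 0.0909. Their groups did not overlap in 9 of 10, CD9 being the exception, against 1.37% of all probe sets tested. The choice by small p and 1 direction in 4 of 4 LGNs favors groups that do not overlap, so this count is no separate result. SCN3B (MmugDNA.34281.1.S1_at), an auxiliary beta subunit of voltage-gated sodium channels, read 2105, 1639, 2873 and 2419 in deprived and 910, 605, 962 and 801 in nondeprived layers. The deprived layer was more than 2 times the nondeprived one in each LGN, and the log2 fold change was 1.45 (SE 0.24). A second SCN3B probe set (MmugDNA.34284.1.S1_at) read 2741, 1836, 1316 and 1290 against 1296, 793, 430 and 348, also 1.45 (SE 0.25), and another with mean signals under 100 gave 0.15. The first 2 probe sets gave the same size, although the groups overlapped in the second, where both layers of the 2-month animal read above those of the 4-month animal in the same condition.

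The other members of the list of sodium, calcium and HCN channel genes did not follow 1 direction. Of 20 measured genes of 32, 10 were positive and 10 negative, and their median log2 fold change was 0.01, against -0.02 over all 12114 genes represented by 1 probe set each. In 4 of 4 LGNs 5 read higher and 3 lower, where 10.2% and 10.9% of all genes did, and besides FGF11 the members with an unadjusted p under 0.05 are named here after their values were seen. FGF13 (MmuSTS.4776.1.S1_at), another homologous factor, read 3531, 3610, 4288 and 4571 in deprived and 2972, 1760, 2246 and 1207 in nondeprived layers, opposite in sign to FGF11 (1.03, SE 0.22, adjusted p = 0.163 by limma). SCN2A (MmugDNA.37863.1.S1_at), a pore-forming subunit prominent in immature axons, read 2684, 2635, 3680 and 3543 against 2081, 1657, 1903 and 2100, a log2 fold change of 0.69 (SE 0.17). SCN3A, the pore-forming subunit of embryonic neurons, had 0.57 (SE 0.19). For these 3 genes no deprived array was below a nondeprived one. SCN1A and SCN8A, the pore-forming subunits of mature axons and fast-firing neurons, stood on the other side of 0 at -0.31 (SE 0.13) and -0.61 (SE 0.26), with lower signals in 4 of 4 LGNs and overlapping groups, and a dimmer SCN1A probe set gave -0.80. FGF12 and FGF14, the remaining homologous factors, were near 0 at -0.15 and -0.03, and none of the differences except that of FGF11 passed the threshold.

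The other genes named for higher signals were ALDH1A2, MAML3, KLF6, DUSP16, NANOS1, AGT, CD9, GSDME and GPI. ALDH1A2 (MmuSTS.3434.1.S1_at), the enzyme that oxidizes retinaldehyde to retinoic acid, read 591, 963, 715 and 568 in deprived layers and 9.64, 98.1, 39.7 and 44.6 in nondeprived layers. All nondeprived arrays were below 100, the study's minimum for an intensity, so the log2 difference of 4.27 (SE 0.75, adjusted p = 0.0909 by limma) is not exact, and with signals under 50 raised to 50 it was 3.55. MAML3 (MmugDNA.32526.1.S1_at), a coactivator of Notch signaling, read 1997, 1981, 2588 and 2751 against 1080, 1035, 1415 and 835, a log2 fold change of 1.10 (SE 0.18). KLF6 (MmugDNA.839.1.S1_at), a zinc-finger transcription factor, read 3987, 4093, 4001 and 3088 against 2380, 2111, 1664 and 1928 (0.91, SE 0.15). Other KLF6 probe sets gave 1.03 (MmugDNA.26405.1.S1_at), 0.62 and, with mean signals of 538 and 472, 0.12, and a pair with mean signals under 100 gave 0.30 and -0.43. DUSP16, a phosphatase of MAP kinases, had 1.13 (SE 0.19) and NANOS1, an RNA-binding repressor of translation, 1.11 (SE 0.18). The deprived layers were above all nondeprived layers for each of MAML3, KLF6, DUSP16 and NANOS1.

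AGT (MmuSTS.3785.1.S1_at), angiotensinogen, which is made by astrocytes in the brain, read 4620, 5278, 4931 and 4101 in deprived layers and 3102, 2103, 3051 and 1897 in nondeprived layers (0.93, SE 0.16). CD9, a tetraspanin of the cell surface, read 1959, 6108, 8889 and 4358 against 1466, 1458, 2911 and 1171, a log2 fold change of 1.50 (SE 0.26). Its deprived signals spread over more than 4-fold, and the ipsilateral LGN at 2 months had the smallest difference; another CD9 probe set (MmuSTS.3583.1.S1_at) gave 1.28. GSDME, a gasdermin that forms membrane pores, read 589 to 662 in deprived and 248 to 333 in nondeprived layers (1.16, SE 0.20). GPI (MmugDNA.37076.1.S1_at), an enzyme of glycolysis, read 2283, 2006, 3791 and 2386 against 1060, 910, 1149 and 1133, a log2 fold change of 1.26 (SE 0.20). Here the probe sets disagreed, since another GPI probe set (MmugDNA.15667.1.S1_at) read lower in 4 of 4 deprived layers, at 6395, 3512, 4697 and 4694 against 6856, 5124, 5912 and 7047 (-0.39, SE 0.15).

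Besides FGF11, 9 genes were named for lower signals, with adjusted p-values of 0.0859 to 0.131 (limma). In 6 of the 10 with FGF11 the groups did not overlap, against 1.13% of all probe sets tested, and here too the choice favors this. ATP2B3 (MmugDNA.11385.1.S1_at), a plasma membrane calcium pump, read 361, 285, 793 and 677 in deprived and 680, 452, 1873 and 2365 in nondeprived layers, with all signals of the 4-month animal above those of the same condition at 2 months (log2 fold change -1.15, SE 0.19). PPP3CB (MmugDNA.25748.1.S1_at), a catalytic subunit of calcineurin, read 1869, 1368, 1490 and 1709 against 2673, 2523, 2199 and 3143 (-0.71, SE 0.14). But 2 other, brighter probe sets of the gene gave -0.05 with mean signals of 3578 and 3636, and -0.12 with 14084 and 15368. EPN1 (MmugDNA.34766.1.S1_at), the endocytic adaptor epsin 1, read 8055, 6382, 4436 and 4634 against 13996, 13652, 8759 and 11083 (-1.03, SE 0.18). Other EPN1 probe sets disagreed, at -1.40 with mean signals of 292 and 682, -0.13 with 1954 and 2132, and 0.30 with 104 and 83.3. CERK (MmugDNA.42847.1.S1_at), which phosphorylates ceramide, read 1387, 1046, 694 and 1133 against 2037, 2384, 1997 and 2523 (-1.11, SE 0.20), with no overlap. Its other probe sets gave -0.58 with mean signals of 651 and 996, 0.29 with 2347 and 1792, and -0.04 with 17419 and 17689, the brightest. PCSK2, a convertase that cuts neuropeptide precursors, had -1.29 (SE 0.24) and, from another probe set (MmugDNA.11368.1.S1_at) that read 1766, 1485, 1775 and 1981 against 2879, 2997, 3007 and 4096, -0.88 (SE 0.17).

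The other genes named for lower signals were NQO2, ARHGAP9, HSPB6 and DMAC2. NQO2 (MmugDNA.43134.1.S1_at), a quinone reductase, read 5174, 4104, 3395 and 3378 against 7215, 7689, 6506 and 6360, with no overlap and a log2 fold change of -0.81 (SE 0.15). ARHGAP9, a GTPase-activating protein, had -1.13 (SE 0.20) and lower signals in all 3 of its probe sets. HSPB6, a small heat shock protein, had -0.999 (SE 0.18). DMAC2, an assembly factor of respiratory complex I, read 1650, 1497, 2908 and 2951 against 2312, 2115, 4940 and 5587, with the signals of the 4-month animal above those of the 2-month animal in both conditions (-0.67, SE 0.13). Another DMAC2 probe set of like brightness (MmugDNA.4343.1.S1_at, mean signals of 2972 and 3320) gave -0.16 (SE 0.16), and a dimmer one gave 0.01.

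In the outer parvocellular layers (5 and 6), captured from the same LGNs on other arrays, all 20 named genes had the same sign as in the inner layers. The outer differences were in 1 direction in 4 of 4 LGNs for 7 of the 10 genes with higher and 9 of the 10 with lower inner signals, where 11.6% and 9.83% of the 25428 probe sets with a mean of 100 or more in the higher inner group were. These counts are not independent of the choice, since the genes were ranked by p in 1 fit whose spread the outer pairs helped to set. The outer log2 fold changes were 0.96 for SCN3B, 0.73 for GPI, 3.33 for ALDH1A2 and -1.28 for EPN1. The outer value was smaller in size than the inner one for 17 of 20 genes, FGF11, EPN1 and PPP3CB being the exceptions. The genes were chosen by their inner values, which favors larger inner values, so this count does not compare the strength of deprivation between the layers. In magnocellular layers 1 and 2, 19 of the 20 had the inner sign, with CERK at 0.19 as the exception, and AGT read 2.06.

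**Figure D2:**
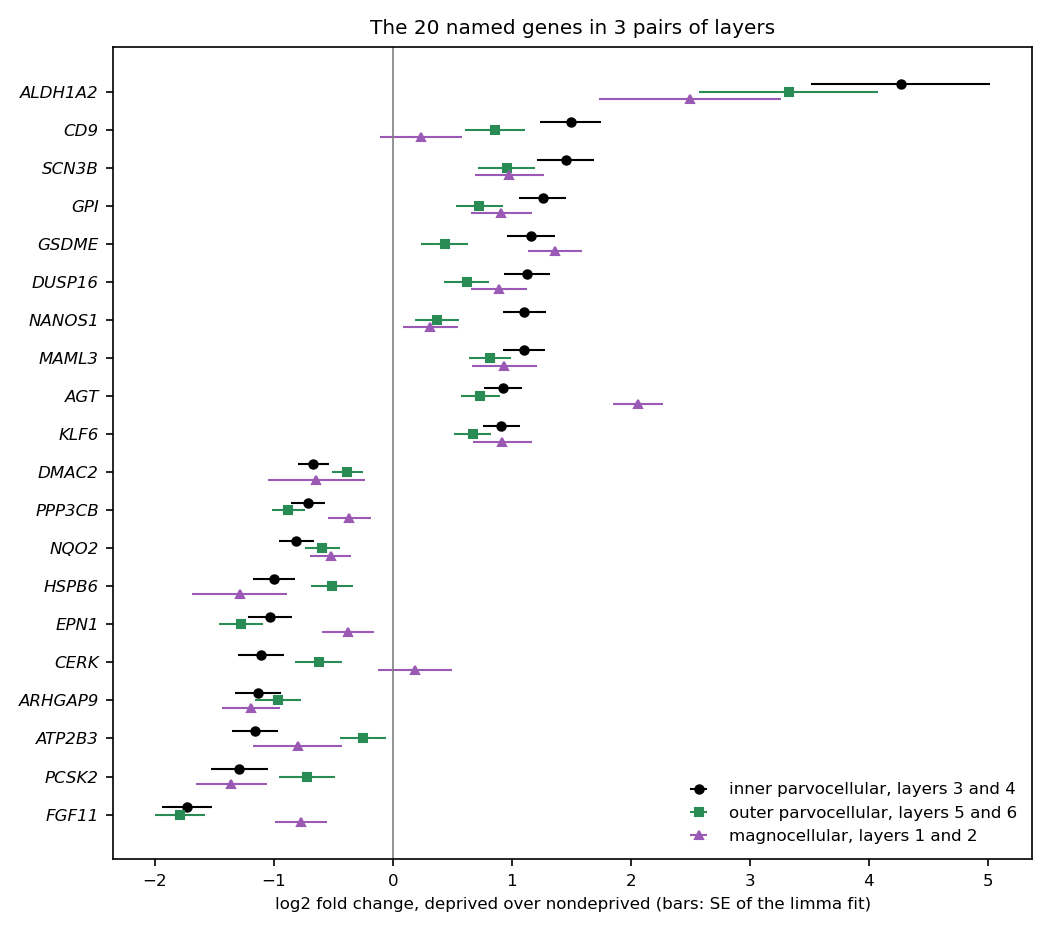
Log2 fold change (deprived over nondeprived layers) for the 20 named genes in the inner parvocellular (black circles), outer parvocellular (green squares) and magnocellular layers (purple triangles), each over 4 LGNs with the SE of the limma fit as the bar. All outer values lie on the inner side of 0, and NANOS1, GSDME and ATP2B3 lie farther from 0 in the inner than in the outer layers (unadjusted p under 0.05, adjusted p = 0.889 or more).

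A test of the difference between the inner and outer deprivation effects called 0 of 37623 probe sets (limma, lowest adjusted p = 0.889), with 1804 at an unadjusted p under 0.05 (4.79%). Among the named genes the difference had an unadjusted p under 0.05 for NANOS1 (0.37 in outer layers), GSDME (0.44) and ATP2B3 (-0.25). The 5 genes with the smallest p for this difference were SAP30BP, BRD2, SEZ6L, RAB31 and RREB1, all at an adjusted p of 0.889. SAP30BP, a regulator of transcription, was -0.22 in inner and 1.20 in outer layers. BRD2, a bromodomain reader of acetylated histones, was -1.54 and 1.18, and SEZ6L, a transmembrane protein of neurons, was -0.39 and 0.60. RAB31, a GTPase of membrane traffic, was -1.20 and 0.40, and RREB1, a zinc-finger transcription factor, was 2.00 and 0.02. RREB1 read 17 to 48 in nondeprived and BRD2 17 to 139 in deprived inner layers, near or under the minimum of 100.

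Against the magnocellular layers the inner effect also differed for 0 probe sets at the threshold (limma, lowest adjusted p = 0.188), with 2251 at an unadjusted p under 0.05 (5.98%). The named genes of this difference, with adjusted p-values of 0.442 to 0.822, were COL13A1, a transmembrane collagen, at 0.49 in inner and 2.88 in magnocellular layers, IGFL1, a growth factor-like protein, at -0.02 and 1.73, ZNF184, a zinc-finger protein, at -0.19 and 1.61, SREK1IP1, a partner of a splicing factor, at -0.38 and 0.96, and LDAH, a lipid droplet protein, at -0.26 and 1.13.

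A fold rule modeled on that of the study for magnocellular layers, but with the sign of the ratio in place of its change calls, took a mean fold of at least 1.7 in 1 direction in 4 of 4 LGNs. It selected 309 probe sets with higher (1.22%) and 327 with lower signals (1.29%) among the 25428. They stood for 172 and 163 distinct gene symbols. The probe sets with higher signals had a positive sign in 265 of 309 cases in the outer layers (85.8%, against 53.0% of the 25428) and in 272 in magnocellular layers (88.0% against 55.5%), with medians of 0.48 and 0.54. In 4 of 4 outer pairs 126 were higher (40.8% against 11.6%). Of the probe sets with lower signals 197 of 327 were negative in the outer layers (60.2% against 47.0%) with a median of -0.13, and 162 in magnocellular layers (49.5% against 44.5%) with a median of 0.00. The inner medians, which the rule fixed, were 0.96 and -0.97. The 25428 were chosen by the mean signal of the higher inner group alone, so the other group could be dimmer. For all probe sets tested, the rule gave 543 with higher and 934 with lower signals. With signals under 50 raised to 50 it gave 253 and 234. The part of dim signals in the contrast between the probe sets with higher and with lower signals was not tested. Over the 25428 probe sets the log2 fold changes of inner and outer layers had a Pearson correlation of 0.246 and a Spearman correlation of 0.248, across probe sets that share LGNs and are not independent.

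**Figure D3:**
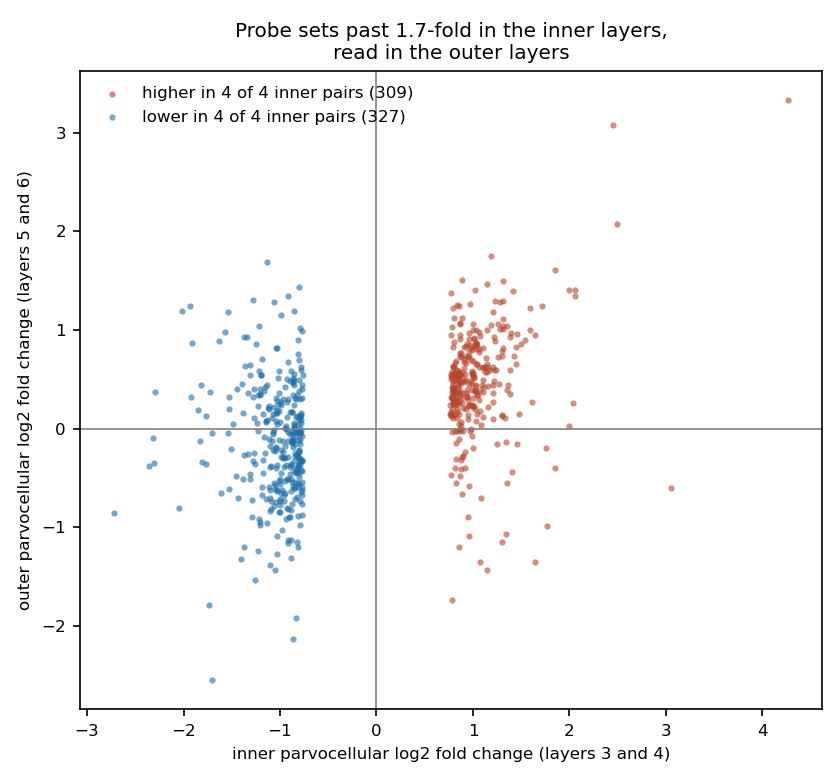
Log2 fold change in the outer layers (vertical axis) against that in the inner layers (horizontal axis) for the 309 probe sets with higher (red) and 327 with lower signals (blue) selected by the fold rule in the inner layers. Most red points lie above 0 on the outer axis (265 of 309), while blue points lie on both sides (197 of 327 below 0); the gap around 0 on the horizontal axis is set by the rule. No minimum was set on the mean signal of the dimmer inner group, and the part of dim signals was not tested.

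Between the 2 animals the inner deprivation effect differed for 0 of 37623 probe sets (limma, lowest adjusted p = 1.00), with 1259 at an unadjusted p under 0.05 (3.35%). None of the 20 named genes had an unadjusted p under 0.05 for this difference. Its 5 leading genes were CRIP3, ZNF641, ADAMTS18, TM6SF1 and RPP14. ADAMTS18, a matrix protease, read 575 and 538 in deprived and 1100 and 1474 in nondeprived layers at 2 months, but 202 and 114 against 115 and 74 at 4 months. TM6SF1, a membrane protein, was -0.61 at 2 and 0.78 at 4 months, and RPP14, a subunit of ribonuclease P, 0.41 and -1.06. CRIP3 and ZNF641 turned from 1.80 and 2.42 to -1.40 and -0.88, and their signals were at most 238.

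Probe sets were also chosen by the fold rule in 1 animal and read in the other, whose ratios the rule did not use. But the 25428 they came from were set by mean signals over both animals, so the reading is not fully independent of the choice. Of 946 higher in both LGNs at 4 months, 597 were higher in both LGNs at 2 months (63.1%, against 29.6% of all 25428), with a median of 0.35. Of 659 chosen at 2 months, 233 were higher in both LGNs at 4 months (35.4% against 22.7%), with a median of 0.15. For lower signals 592 of 1517 chosen at 4 months were lower in both LGNs at 2 months (39.0% against 27.0%), and 237 of 509 chosen at 2 months were lower in both at 4 months (46.6% against 29.8%). The contralateral LGN at 4 months had the widest ratios, with 15.2% of probe sets differing by at least 2-fold between its inner layers, against 4.63%, 5.91% and 9.37% in the others, and its median log2 ratio was -0.10 where the others were within 0.02 of 0. The log2 ratios of any 2 LGNs had Pearson correlations of 0.0533 to 0.225 across probe sets.

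Genes of oxidative phosphorylation, the mitochondrial machinery that makes most of a neuron's ATP, read lower in the deprived inner layers in 36 of 38 measured members of a list of 56. The median log2 fold change was -0.27, against -0.02 over 12114 genes, of which 52.8% were negative. In 4 of 4 LGNs 18 of the 38 read lower and 0 higher, against 10.9% and 10.2% of all genes. At an unadjusted p under 0.05, 17 were lower and 1 higher, against 5.03% and 6.47%, and none passed the threshold (limma). The direction was shared by the complexes. All 17 measured subunits of complex I, which takes electrons from NADH, were negative (median -0.27), as were all 3 of complex II (-0.41), all 5 of complex III (-0.25) and all 4 of complex IV, cytochrome oxidase (-0.33). Of 9 subunits of complex V, the ATP synthase, 7 were negative (-0.24), and ATP5MC1 at 0.39 was the highest of the list.

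NDUFS8 (MmugDNA.42544.1.S1_s_at), an iron-sulfur subunit of complex I, read 4409, 2937, 2663 and 1724 in deprived and 4336, 4409, 4733 and 3840 in nondeprived layers (-0.64, SE 0.19), with no difference in the ipsilateral LGN at 2 months. COX7B, a subunit of cytochrome oxidase, read 14105, 10413, 8125 and 7553 against 13694, 18695, 9670 and 16456 (-0.54, SE 0.17), and the same LGN again read slightly higher on the deprived side. SDHB (MmugDNA.9546.1.S1_s_at) of complex II read 3619, 2107, 3270 and 3617 against 4520, 3851, 4454 and 3672, with no overlap but almost equal signals in the contralateral LGN at 4 months (-0.41, SE 0.16). NDUFV2 (MmugDNA.18192.1.S1_at) read 6900, 6160, 5319 and 6143 against 8583, 7393, 7532 and 7522, with every deprived layer below every nondeprived one (-0.34, SE 0.12), and a dimmer NDUFV2 probe set gave 0.21. The differences were small next to those of the leading genes, and what the members had in common was their sign.

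Glycolysis genes took the same direction, with 13 of 15 measured members of a list of 19 negative, a median of -0.24 and lower signals in 4 of 4 LGNs for 7 members, where 52.8% of all genes were negative and 10.9% were lower in 4 of 4 LGNs. At an unadjusted p under 0.05, 5 were lower and 0 higher, against 5.03% and 6.47% of all genes. The median was -0.15 without the contralateral LGN at 4 months, -0.15 with the GAPDH ratio as a covariate and -0.16 in the 2-month animal alone. PKM (MmugDNA.2300.1.S1_at), pyruvate kinase, read 2573, 1283, 1625 and 1602 against 3882, 2294, 5400 and 2888 (-1.003, SE 0.29). GAPDH (MmugDNA.34587.1.S1_s_at) read 9003, 6132, 7494 and 5696 against 10351, 9288, 8981 and 18764 (-0.70, SE 0.22), so its mean rested in large part on 1 nondeprived array, that of the contralateral LGN at 4 months. ALDOA, aldolase A, had -0.49 (SE 0.19), and the other GPI probe set given above, which stands for the gene in this list, had -0.39.

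Bright probe sets as a whole also read lower in the deprived inner layers, and their part in the lists was not tested. Of 1931 probe sets whose mean signal was at least 5000 in the higher group, 62.2% were negative and 17.2% were lower in 4 of 4 LGNs, with a median of -0.06, and of 728 at 10000 or more 72.3% were negative with a median of -0.09. The oxidative phosphorylation genes among the 1931 were negative in 27 of 29, lower in 4 of 4 LGNs in 14 and had a median of -0.26, and the 8 glycolysis genes were all negative with a median of -0.27. In the outer layers oxidative phosphorylation had a median of -0.05, with 25 of 38 negative (46.6% of all genes) and 4 lower in 4 of 4 LGNs, and the probe sets at 10000 or more had a median of 0.12 with 30.4% negative. The inner value was below the outer one in 34 of 38 genes, but the test of the difference gave an unadjusted p under 0.05 for 3 of them and none passed the threshold (limma, adjusted p = 0.889 or more). In magnocellular layers 33 of 38 were negative with a median of -0.30.

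**Figure D4:**
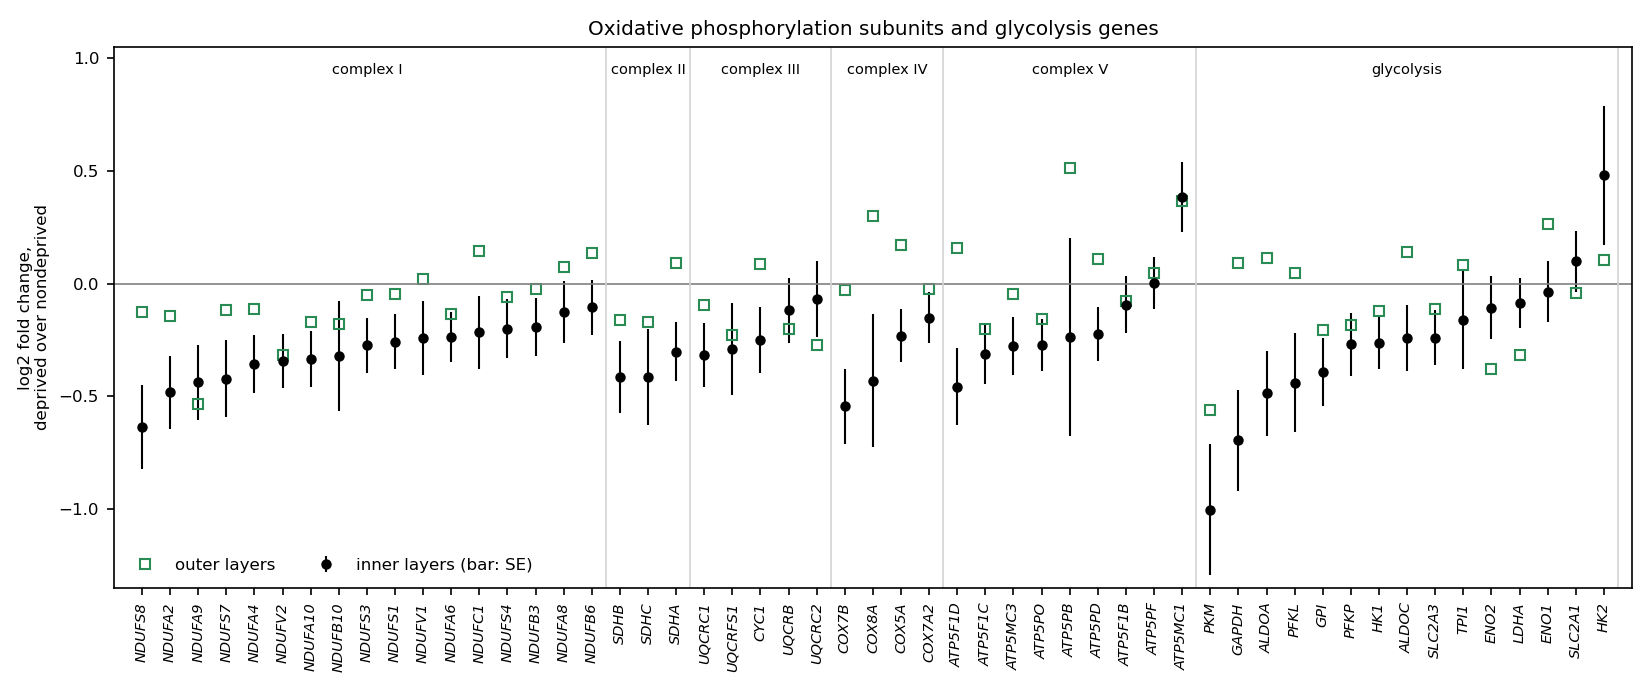
Log2 fold change, deprived over nondeprived, of 38 oxidative phosphorylation subunits by complex and 15 glycolysis genes in the inner layers (black circles, bars are the SE) and in the outer layers (green squares). All inner values of complexes I to IV lie below 0. The outer values lie on both sides of 0. They are negative for 13 of 17 subunits of complex I, 2 of 3 of complex II and 4 of 5 of complex III. For complexes IV and V they are negative for 2 of 4 and 4 of 9.

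By LGN, the median log2 ratio of the oxidative phosphorylation genes was -0.13, -0.21, -0.25 and -0.53, and that of all genes 0.02, -0.02, 0.02 and -0.14. The 4 LGNs thus shared the sign, and the contralateral LGN at 4 months had the widest difference. Glycolysis genes had -0.10, -0.15, -0.14 and -0.56.

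On arrays of pooled sections, fewer cells of a type and less RNA per cell cannot be told apart. Relay neuron markers such as NEFH and PVALB were above 10000 in all 8 arrays. CAMK2A, a marker of koniocellular neurons, was at 4 to 49, but not all koniocellular markers were this low. Of the 3 measured, 2 had a mean under 100 in each group. Their summed signal was 7154 to 10867 in deprived and 9994 to 11286 in nondeprived inner layers. Of 14 listed relay neuron markers 8 were measured, 7 were negative and 3 were lower in 4 of 4 LGNs, with a median of -0.17, where 10.9% of all genes were lower in 4 of 4 LGNs. NEFH (MmugDNA.18337.1.S1_at), the heavy neurofilament protein, read 26020, 20848, 22295 and 21537 in deprived and 30560, 29605, 27559 and 36436 in nondeprived layers, with no overlap (-0.45, SE 0.12). PVALB (MmugDNA.23641.1.S1_at), the calcium buffer parvalbumin, read 16602, 13907, 21109 and 18094 against 18990, 18091, 22431 and 34478 (-0.40, SE 0.14). The summed signal of the 8 markers was 87501 to 101010 in deprived and 103371 to 136453 in nondeprived inner layers, also without overlap. Bright markers such as NEFH and PVALB weigh most in this sum. The mean log2 level of the markers, centered per gene over the parvocellular arrays, was 0.03, -0.02, 0.10 and -0.23 against 0.17, 0.12, 0.07 and 0.36. By this mean the deprived layer was higher in the ipsilateral LGN at 4 months and lower in the other LGNs. The inner log2 fold change was below the outer one for all 8 markers. In the outer layers the median was 0.25 and PVALB was 0.26. The test of the difference gave an unadjusted p under 0.05 for 4 of the 8, and the lowest adjusted p was 0.889 (limma). The part of these markers in the differences of other genes was not tested.

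Markers of other cell types mostly read higher in deprived layers. All 5 measured of 11 GABAergic markers were positive (median 0.34), and GAD1 (MmugDNA.40699.1.S1_at), which makes GABA, read 14279, 14234, 14429 and 15621 against 13511, 11224, 13086 and 8912 (0.34, SE 0.16). The summed signal, most of it from GAD1, was 15432 to 17433 in deprived and 9754 to 15334 in nondeprived layers. A mean under 100 was seen for 1 of the 5 markers in deprived and 2 in nondeprived layers. Their mean log2 level, centered per gene over the 16 parvocellular arrays, was -0.24, 0.01, 1.91 and -0.21 against -0.37, 0.33, -0.34 and -0.24. By this mean the deprived layer was lower in the contralateral LGN at 2 months, and the ipsilateral LGN at 4 months had the widest difference. Of 14 astrocyte markers 12 were measured, 10 were positive (median 0.23) and the sums overlapped, at 89126 to 115460 and 81145 to 103819. Their mean log2 level was lower in the deprived layer in the contralateral LGN at 2 months (0.29 against 0.35) and higher in the other LGNs. GFAP (MmuSTS.4827.1.S1_at), the filament protein of astrocytes, read 7736, 6676, 12511 and 3470 against 2836, 4165, 2616 and 3025, a log2 difference of 1.15 (SE 0.30, adjusted p = 0.246 by limma) that was smallest in the contralateral LGN at 4 months. Another GFAP probe set (MmuSTS.1721.1.S1_at), with mean signals of 1274 and 1422, gave -0.16. S100B had 0.37 and AGT is described above. Of 13 microglia markers 12 were measured and 11 were positive (median 0.35), led by PTPRC at 0.89 and P2RY12 at 0.73, with sums of 8099 to 10644 and 6510 to 9390. By LGN the microglia median was 0.61, 0.14, 0.67 and -0.31, so that the contralateral LGN at 4 months went the other way.

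Of 15 markers of oligodendrocytes and myelin 6 were measured and 4 were positive (median 0.34), led by MAL at 0.68 and OLIG2 at 0.56, while the abundant myelin genes MBP and CNP were at -0.02 and -0.06 with their sign turned under quantile normalization, and the sums overlapped (59486 to 78061 and 64196 to 74835). Oligodendrocyte precursor markers had 4 of 5 measured and a median of 0.08. Blood vessel markers had 8 of 14 measured, a median of 0.06 and sums of 4693 to 8247 and 5308 to 8444. Koniocellular markers had 3 of 5 measured (PENK -0.17) and blood markers 2 of 5. None of the marker genes passed the threshold, and 4 of 4 LGNs were higher for 4 of 12 astrocyte, 3 of 12 microglia, 2 of 6 oligodendrocyte and 2 of 5 GABAergic markers, against 10.2% of all genes.

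**Figure D5:**
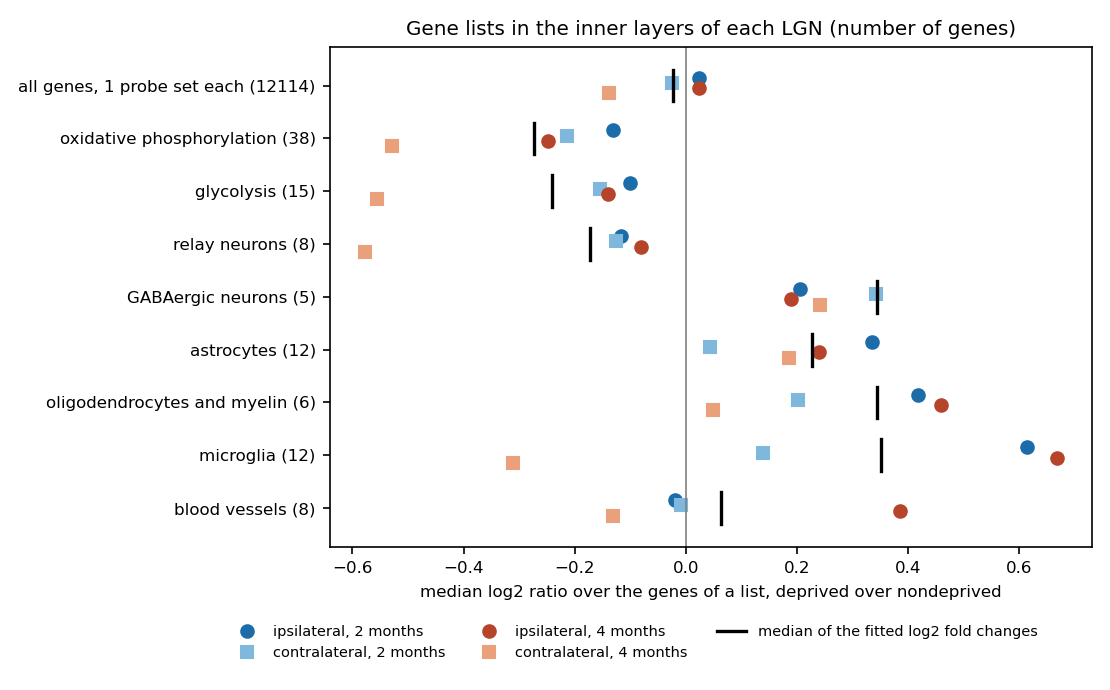
Median log2 ratio, deprived over nondeprived, over the genes of each list in the inner layers of each of 4 LGNs (colored symbols) and the median of the fitted log2 fold changes (black bar), with the number of genes in parentheses. The oxidative phosphorylation, glycolysis and relay neuron lists lie below 0 in every LGN, the GABAergic and astrocyte lists above 0 in every LGN, and the microglia list is below 0 only in the contralateral LGN at 4 months (-0.31).

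Neuropeptide genes included those of the corticotropin-releasing hormone system. The study singled this system out on these samples and also measured CRH by qRT-PCR and by in situ hybridization, the latter partly in animals not on these arrays. Of 26 listed genes 14 were measured, 5 were positive and 9 negative (median -0.10), with 1 higher and 3 lower in 4 of 4 LGNs against 10.2% and 10.9% of all genes. CRH (MmugDNA.11712.1.S1_at), the peptide precursor, read 1916, 2331, 2294 and 1565 in deprived and 1316, 1773, 1779 and 873 in nondeprived layers, higher in 4 of 4 LGNs with overlapping groups (0.54, SE 0.14, adjusted p = 0.242 by limma). Other probe sets of CRH could have gone unread, since 27449 had no symbol. CRHBP (MmunewRS.711.1.S1_at), the protein that binds and sequesters the peptide, read 138, 200, 254 and 174 against 380, 439, 543 and 437, lower without overlap (-1.25, SE 0.27, adjusted p = 0.181 by limma), and -1.54 in the outer layers. CRHR1, its receptor, was at -0.55 (SE 0.30) and lower in 3 of 4 LGNs. The ligand and its binding protein thus stood on opposite sides of 0 in every LGN.

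Other genes that the study named were also read in the inner layers, and none passed the threshold. The study listed TAFA1, PAPPA, CREB5, PIK3R1, DSEL and SPON1 as higher in deprived magnocellular layers. It also measured CREB5, PIK3R1, WNT5A, DPYSL3 and NDST4 by qRT-PCR, and it named parvocellular layers for DPYSL3. TAFA1 (MmugDNA.7497.1.S1_at), a secreted chemokine-like protein of neurons, read 625, 642, 1018 and 1006 against 152, 102, 172 and 174, a log2 difference of 2.45 (SE 0.62, adjusted p = 0.228 by limma) and 3.08 in the outer layers. PAPPA (MmugDNA.2791.1.S1_at), a protease that frees insulin-like growth factors from their binding proteins, read 948, 565, 909 and 1161 against 482, 318, 600 and 565 (0.86), where magnocellular layers had 3.16, and another PAPPA probe set (MmugDNA.27876.1.S1_at) gave 1.54 in inner (SE 0.25, adjusted p = 0.0859 by limma) and 2.08 in magnocellular layers. CREB5 (MmugDNA.14651.1.S1_at), a CREB-family transcription factor, read 804, 905, 996 and 979 against 421, 563, 532 and 493 with no overlap (0.88, SE 0.16), and another CREB5 probe set gave -0.04, with its sign turned under median scaling. PIK3R1, the regulatory subunit of phosphoinositide 3-kinase, had 1.31, 0.78, 0.75 and 0.23 from 4 probe sets. DSEL, an enzyme of dermatan sulfate, had 1.03 and SPON1, an extracellular matrix protein, 0.67. WNT5A, a secreted Wnt ligand, was lower in 4 of 4 LGNs in both probe sets (-0.71 and -0.53), DPYSL3, a growth cone protein, was at -0.13 and NDST4, an enzyme of heparan sulfate, at -0.77 with signals of at most 347.

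Of 28 listed activity-regulated genes 22 were measured, 16 were positive and 6 negative (median 0.16), where 52.8% of all genes were negative. In 4 of 4 LGNs 3 were higher (13.6%) and 0 lower, against 10.2% and 10.9% of all genes. INHBA (MmugDNA.21962.1.S1_at), the activin subunit, read 1353, 1400, 556 and 990 against 902, 563, 368 and 512 (0.86, SE 0.19), and KLF4, a transcription factor, read 514, 684, 838 and 1134 against 392, 361, 483 and 276 (1.04, SE 0.27). FOS, the immediate early gene, read 1757, 931, 396 and 538 against 2533, 1130, 660 and 373, a log2 fold change of -0.25 (SE 0.22), where the contralateral LGN at 4 months went against the other 3.

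Synaptic vesicle genes were negative in 10 of 13 measured of 27 (median -0.16), with 5 lower and 1 higher in 4 of 4 LGNs, where 52.8% of all genes were negative, 10.9% lower and 10.2% higher in 4 of 4. At an unadjusted p under 0.05, 2 were lower and 1 higher. VAMP1 (MmuSTS.4629.1.S1_at), a vesicle fusion protein of fast axons, read 1970, 888, 1253 and 1140 against 2941, 1984, 2387 and 1711 (-0.81, SE 0.19), RAB3A, a vesicle GTPase, had -0.69, and SYT4, a synaptotagmin, was higher in 4 of 4 LGNs at 0.39. Of 41 potassium channel genes 29 were measured, 14 were positive and 15 negative (median -0.07), and 5 were higher and 5 lower in 4 of 4 LGNs, against 10.2% and 10.9% of all genes. At an unadjusted p under 0.05, 1 was higher and 4 were lower, against 6.47% and 5.03%. The 1 higher was KCNJ10, an inward rectifier of glia, at 0.27, and KCNA3 and KCNB2, higher in 4 of 4 LGNs, were at 0.54 and 0.39. The 4 lower were the voltage-gated channel genes KCNA2, KCNA1 and KCNC1 at -0.38, -0.62 and -0.64 and the beta subunit gene KCNAB2 at -0.50. Calcium-binding and calmodulin genes were balanced at 9 positive and 9 negative of 18 (median -0.02), with CALM3, a calmodulin gene, at -0.51 and lower in 4 of 4 LGNs. The 5 measured neurofilament and microtubule genes of 17 had a median of -0.12, led by NEFH.

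Growth cone genes had 14 positive of 24 measured (median 0.08). Their members pointed both ways: STMN4, a stathmin, read 6298, 7969, 7209 and 6217 against 3776, 5244, 4198 and 6103 (0.54, SE 0.15), while STMN3, its relative, read 8221, 5401, 5628 and 4758 against 8691, 7075, 9116 and 9257 (-0.53, SE 0.17). Extracellular matrix genes had 18 positive of 28 (median 0.16), with log2 fold changes up to 1.85. At an unadjusted p under 0.05 (limma) 6 of them were higher (21.4%) and 1 lower (3.57%). In 4 of 4 LGNs 2 were higher and 2 lower, against 10.2% and 10.9% of all genes. HAPLN4, a link protein of perineuronal nets, was lower in 4 of 4 LGNs (-0.64, SE 0.20), against the direction of most of the list. Retinoic acid genes had 8 positive of 13 (median 0.08), with ALDH1A2 far above the rest, the receptor gene RARB at 0.56 and RARA at -0.33. Cholesterol synthesis genes had 11 positive of 16 (median 0.17), with HMGCS1 at 0.35 and HSD17B7 at 0.41. Trophic factors and receptors had 12 positive of 20 (median 0.09), with IGF1 at 0.58. Wnt genes had 16 positive of 27 (median 0.06), with the receptor gene FZD5 at 1.15 with signals of at most 216. Glutamate receptor genes had 5 positive of 7 (median 0.15), with GRIK1 at 0.53 and GRIA1 at 0.43, GABA receptor genes 1 positive of 5 (median -0.08), and apoptosis regulators 5 positive of 13 (median -0.12), with APAF1 at 0.69. No gene of these lists passed the threshold (limma), and at an unadjusted p under 0.05 the lists held between 0 and 6 genes with higher and between 0 and 2 with lower signals, where 6.47% and 5.03% of all genes had them and 52.8% of all genes were negative.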

How the data were processed

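The deposited values are signal intensities on a linear scale that the authors computed with the GCOS software from 1 array per sample; each array has an equal trimmed mean (2% left out at each end), and their presence and change calls and the study's other arrays were not used here. The file held 52865 probe sets, of which 99 were controls. The platform table gave 1 symbol for 24956, several for 361 and none for 27449; 11 were named from the study's table. A symbol with several probe sets was represented in lists by that of the highest mean log2 signal. Signals under 1 were set to 1, and the 37623 probe sets that reached 100 on any of the 24 arrays were tested.

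Log2 signals were fitted in R 4.3.3 with limma 3.58.1 (eBayes with a trend; statmod 1.5.0) on 16 parvocellular arrays, with 8 pairs of layers as a fixed block and separate inner and outer effects (6 residual degrees of freedom); the fit against magnocellular layers used 24 arrays and 12 pairs. With the pair as block, the inner fold change came from the 8 inner arrays and the outer arrays added to the spread. P-values were adjusted over all probe sets by the method of Benjamini and Hochberg, with a threshold of 0.05. Scripts were tested on simulated data. Samples were grouped and paired by the side, layer and duration in their titles, so that a pair shares an LGN. After removal of the condition means the correlation of the 2 arrays of a pair was 0.268, 0.562, 0.233 and 0.218.

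The members and lists were chosen with earlier results of these data known. Named genes were, in each direction, up to 10 with 1 symbol, an adjusted p under 0.05, 1 direction in every LGN and a higher group with a mean of at least 100, and, where fewer passed, those next in unadjusted p; the genes the study names; the 2 members of each list with the smallest p; and the 5 leading genes of each difference. Others in the text were chosen after their values were seen. Alternatives were other scalings, floors, filters, moderation, arrays, blocks and covariates, each LGN pair left out and each animal alone; the GAPDH ratio, the fold rule on brighter probe sets and the background at 5000 or more were chosen after seeing the data. The number of arrays limits the precision. Sequences and genome coordinates were not used here, and some genes of the study are not reported here.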

Additional observations from a re-analysis of the deposited data

Results flagged for a closer look

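In 13 of 234 groups of 4 arrays examined, 1 array was far from the other 3 by Dixon's criterion, which flags about 1 in 20 groups by chance. In the contralateral LGN at 4 months, the nondeprived layer read high for GAPDH (18764), PCSK2 (MmugDNA.11368.1.S1_at, 4096), BRD2 (616) and CNP (26706), and the deprived layer read high for GAD1 (15621) and PIK3R1 (the probe set with a log2 fold change of 0.78, 352) and low for KLF6 (3088). For GAPDH the other 3 nondeprived layers read 8981 to 10351, and for KLF6 the other 3 deprived layers read 3987 to 4093. In the ipsilateral LGN at 2 months, the deprived layer read high for HAPLN4 (3405) and UQCRC1 (13881), a subunit of respiratory complex III, and low for RREB1 (108) and SCN8A (111), and the nondeprived layer read high for NDUFV2 (8583). In the ipsilateral LGN at 4 months the nondeprived layer read high for CD9 (2911), where the other 3 read 1171 to 1466.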

How the results depend on the processing

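Of the probe sets tested for the inner deprivation effect, 1 was called with limma. It was also 1 under quantile normalization, log2 of the signal plus 16, a minimum on the mean signal, all probe sets without a filter, all 24 arrays and the LGN as block. It was 0 under median scaling, with signals under 50 set to 50, without a trend, with the GAPDH ratio as a covariate, in each animal alone and without each LGN pair in turn (0 to 0), and 2 with layer number as a covariate. Without the replicate block, that is without the pairing, 0 were called, with 1691 at an unadjusted p under 0.05, and the pairing changed none of the 3 tests of a difference, which called 0 under every alternative. The 8 inner arrays alone, with 3 residual degrees of freedom, called 10 (8 higher, 2 lower). Among them were GPI (MmugDNA.37076.1.S1_at), SCN3B (MmugDNA.34281.1.S1_at and MmugDNA.34284.1.S1_at), ALDH1A2, TAFA1, EPN1 (MmugDNA.34766.1.S1_at) and FGF11 (MmuSTS.1939.1.S1_at). The log2 fold change of FGF11 was -1.57 to -1.89 throughout, with an adjusted p of 0.0098 to 0.747. The fold rule gave 1477 probe sets of all tested (543 higher, 934 lower), 487 after signals below 50 were raised to 50 (253 and 234) and 636 with a mean of 100 or more (309 and 327). The median of oxidative phosphorylation genes was -0.19 to -0.35. That of glycolysis genes was -0.15 to -0.36, with -0.15 without the contralateral LGN at 4 months.

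Values near 0 turned sign. CREB5 (MmugDNA.23379.1.S1_at) was 0.000204 under median scaling and -0.0890 to 0.0122 with 1 LGN left out. IGFL1 was 0.0155 under median scaling, 0.0515 at 2 months alone, 0.0452 with the GAPDH ratio and -0.0856 to 0.0155 with 1 LGN left out. MBP was 0.0740, 0.0177, 0.164 and 0.0574 under quantile normalization, median scaling, the 2-month animal alone and the GAPDH ratio, and -0.103 to 0.148 with 1 LGN left out. CNP was 0.0557 and 0.109 under quantile normalization and the 2-month animal alone, and -0.122 to 0.0823 with 1 LGN left out. SAP30BP was 0.21 at 2 months alone and -0.414 to 0.0690 with 1 LGN left out. Genes named for a difference between the animals turned by that choice. RPP14 was 0.41 and TM6SF1 -0.61 at 2 months alone, CRIP3 was -1.40, ZNF641 -0.88 and ADAMTS18 0.72 at 4 months alone, and with 1 LGN left out these 4 ranged from -0.150 to 0.379, -0.413 to 0.943, -0.0796 to 1.38 and -0.592 to 0.165, in the order TM6SF1, CRIP3, ZNF641 and ADAMTS18. The cause was not tested.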
